A study of Mus musculus with 2 samples.

Results

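NADPH oxidases are membrane enzymes that carry electrons from NADPH to oxygen and so make superoxide or hydrogen peroxide, and the NADPH and dual oxidase genes of lung epithelial cells after smoke are described here. The 9 genes looked for were Nox1, Cybb and Nox4 (catalytic subunits), Duox1 and Duox2 (dual oxidases), Cyba (the membrane partner p22phox), Noxo1 and Ncf1 (organizers) and Noxa1 (an activator). They were found by their platform gene symbol among 19505 genes of the value table, which gave 8 of the 9 with 1 platform identifier (called a probe here) each, while Duox2 was not analysed here. The genes were chosen as an enzyme family with the smoke and air signals of these same arrays already known, so every difference between the arrays is a description of the members and supports nothing by itself.

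The cells were sorted from mouse lung as SPC/GFP+ EpCAM+, that is, positive for a green fluorescent reporter named for SPC (surfactant protein C, which alveolar type 2 cells make) and for the epithelial surface protein EpCAM. The control sample came after 3 months of air and the other after 3 months of smoke, and each was hybridised to 1 Clariom S Mouse array, a whole-transcript Affymetrix array. The genotype and strain of the mice, their age and sex, the kind of smoke, the construct behind the reporter and any pooling of animals are not stated in the labels used here. With 1 array per group there is no SD, no test and no p-value, and each comparison below is between these 2 arrays and not between the conditions. In bulk RNA of sorted cells, fewer cells of a type and less RNA per cell cannot be told apart.

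The catalytic subunits differ in what they need. NOX1 works with p22phox, the organizer NOXO1, the activator NOXA1 and a RAC GTPase. NOX2, the product of Cybb and the oxidase of phagocytes, works with p22phox, p47phox (Ncf1), p40phox (Ncf4) and RAC among others. NOX4 needs p22phox but no organizer and releases mostly hydrogen peroxide. The dual oxidases need the maturation factors DUOXA1 and DUOXA2 and supply hydrogen peroxide to lactoperoxidase at the airway surface.

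The smoke array had higher signals of Noxo1, Noxa1 and Cyba, which belong to the partners of the NOX1 complex, while Nox1 itself was below the level filter on both arrays. Genes were called higher for a log2 difference (smoke minus air) of 1 or more and lower for one of -1 or less, which is 2-fold, provided that the stronger of their 2 signals reached 4.57, the median deposited value. Of the 8 measured members, 5 passed this level filter, Noxa1 through its smoke signal alone (2.94 in air, 5.10 in smoke). Of these 5, 3 were higher (Noxo1, Noxa1 and Cyba), 0 were lower and 2 were within 2-fold (Ncf1 and Cybb), where 3.94% of the 10419 genes counted were higher and 2.48% were lower. With the filter on the mean of both arrays Noxa1 was left out and 2 members were higher, where 3.71% of all genes counted were. Over the 8 measured members the differences had a median of 0.645, against -0.02 over all genes. Because the members were chosen on this same contrast, nothing is read from these shares.

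The upstream sequences of the 3 members past 2-fold are shown because these are the genes whose signals were higher together. The bases come from RefSeq (build GRCm38.p6), which held a start for 9 of 9 members, and they are written 5′ to 3′ on the strand of the gene, ending just before the annotated start. Capitals mark a match to a searched motif. For Noxo1 the 77 bases nearest to the start are given, since the neighbouring gene Gfer covers the bases before them. The Noxo1 stretch is chr17:24696157-24696233 on the plus strand, that of Noxa1 is chr2:25095206-25095455 on the minus strand, and that of Cyba is chr8:122432941-122433190 on the minus strand.
Noxo1: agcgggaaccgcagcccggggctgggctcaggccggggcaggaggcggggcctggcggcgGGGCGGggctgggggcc
Noxa1: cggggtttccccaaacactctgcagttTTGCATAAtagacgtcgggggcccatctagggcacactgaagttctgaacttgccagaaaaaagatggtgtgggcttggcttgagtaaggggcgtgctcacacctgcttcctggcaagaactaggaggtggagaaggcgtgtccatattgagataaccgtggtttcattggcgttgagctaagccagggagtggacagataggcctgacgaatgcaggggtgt
Cyba: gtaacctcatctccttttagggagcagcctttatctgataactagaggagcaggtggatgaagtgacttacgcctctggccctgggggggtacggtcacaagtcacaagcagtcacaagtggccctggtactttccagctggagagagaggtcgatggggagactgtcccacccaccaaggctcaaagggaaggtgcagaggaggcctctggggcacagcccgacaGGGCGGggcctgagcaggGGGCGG

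These 3 upstream regions differed in composition. Over the 250 bases before the start, Noxo1 had a GC content of 80.0% with 37 CpG sites, Cyba 60.0% with 6 and Noxa1 53.2% with 8, where the median of 32851 RefSeq starts was 52.4% with 6. On both strands of these 250 bases 6 motifs were searched: TGACTCA (AP-1), TGACNNNGC (antioxidant response), CACGTG (the E-box of clock factors), TTATGCAA (D-box), GGGCGG (GC box) and GAGGAAGT (PU.1). N stands for any base, so a match to TGACNNNGC can hold TGACTCA within it. GC boxes stood upstream of Noxo1 and Cyba, at bases -17 to -12 for Noxo1 and at -24 to -19 and -6 to -1 for Cyba, and a GC box was present in 32.7% of all starts. Noxo1 had another, at -231 to -226, in the part not shown. Noxa1 had no GC box and held the 1 D-box among the members, on the opposite strand at -223 to -216, a motif found in 0.694% of all starts. Of the motifs searched, Noxo1 and Cyba shared the GC box, which Ncf1 and Nox4 also held, and none was common to all 3. The AP-1 (4.46% of all starts), antioxidant response (10.2%), E-box (6.02%) and PU.1 (2.44%) motifs matched in 0 members. For 6 of the 9 members, all but Noxo1, Noxa1 and Cyba, the window overlapped the gene's own annotated span. A match describes letters in a window, and binding was not measured.

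Among the catalytic subunits, no member was past 2-fold. Cybb (NOX2) had log2 signals of 9.45 (air) and 8.73 (smoke), which differ by -0.72, and 5 of the 200 genes nearest in mean level had a difference as low. Its signal was above the filter on both arrays, and the difference was within 2-fold. Nox1 was at 2.23 in air and 2.58 in smoke. Nox4 had signals of 3.59 (air) and 2.87 (smoke). Both genes were below the filter on both arrays, so their differences of 0.35 and -0.72 were not counted; with 16 added on the linear scale before taking logs, which damps differences of dim probes, they were 0.09 and -0.27.

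Of the dual oxidases, Duox1 was at 2.24 in air and 2.41 in smoke, below the filter on both arrays, and its difference of 0.17 was smaller than the robust SD of 0.31 among the 200 genes of like level. The maturation factor gene Duoxa2 was also below the filter, at 2.42 in air and 2.38 in smoke, and Duoxa1 was not analysed here. No detection calls were used, so a signal below the filter is a low value and not an absence of the transcript.

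**Figure D1:**
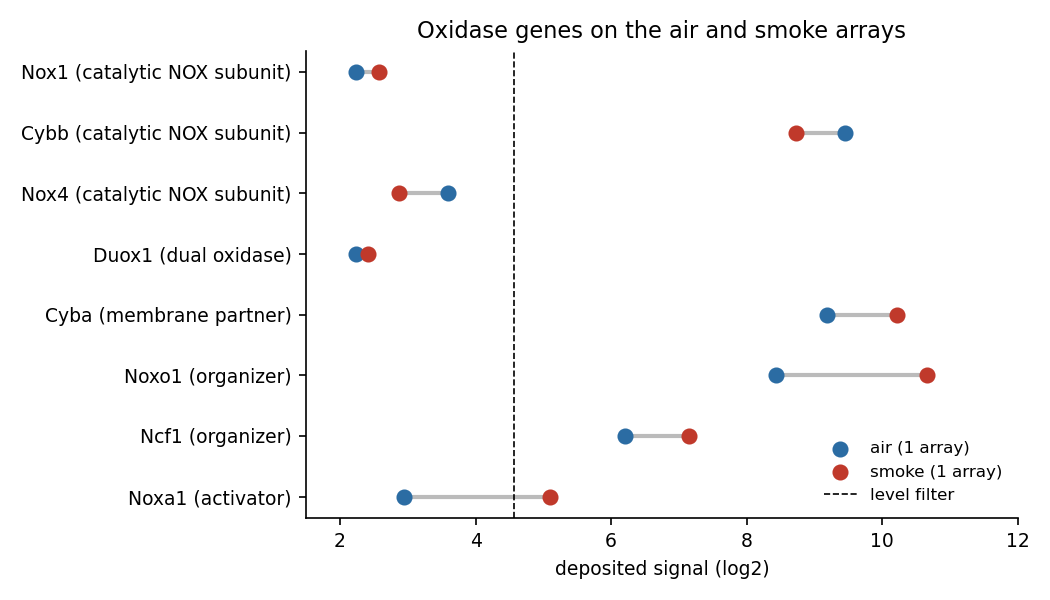
Deposited log2 signal (horizontal axis) of the 8 measured oxidase genes, with 1 point for the air array and 1 for the smoke array and the subunit role in brackets; the dashed line is the level filter of 4.57. Noxo1 and Noxa1 had the widest gaps, with smoke higher, and Nox1, Nox4 and Duox1 lay left of the filter on both arrays.

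The membrane partner Cyba, which holds the NOX catalytic subunits stable and gives the organizers their docking site, was at 9.18 in air and 10.22 in smoke. The difference of 1.04 is 2.06-fold, just past the threshold, and 6 of the 200 genes of like level had a difference as high. Under quantile normalization it was 0.93 and after centring on genes of like level it was 0.90, both within 2-fold. Cyba and Cybb, which together encode the phagocyte cytochrome, thus lay on opposite sides of 0.

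Noxo1, the organizer that links p22phox to the activator without needing phosphorylation, had the largest difference of the family. It was at 8.44 in air and 10.66 in smoke. The difference of 2.22, or 4.66-fold, ranked 23rd from the top among the 10419 genes counted. Among its 200 genes of like level, 0 had a difference as high, and their robust SD was 0.45. Ncf1, the phosphorylation-dependent organizer p47phox of phagocytes, was at 6.21 in air and 7.15 in smoke. Its difference of 0.94, or 1.92-fold, lay just under the threshold, and 11 of the 200 genes of like level had one as high. Of the organizers, Noxo1 was thus past 2-fold and Ncf1 was not.

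Noxa1, the activator of the NOX1 complex, was at 2.94 in air and 5.10 in smoke. It passed the filter through its smoke signal alone. The difference was 2.16 (4.47-fold), the 25th highest of the genes counted, with 0 of 200 genes of like level as high. With the linear offset of 16 it was 1.09 (2.12-fold), still past 2-fold, and a filter on the mean of both arrays left Noxa1 out.

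**Figure D2:**
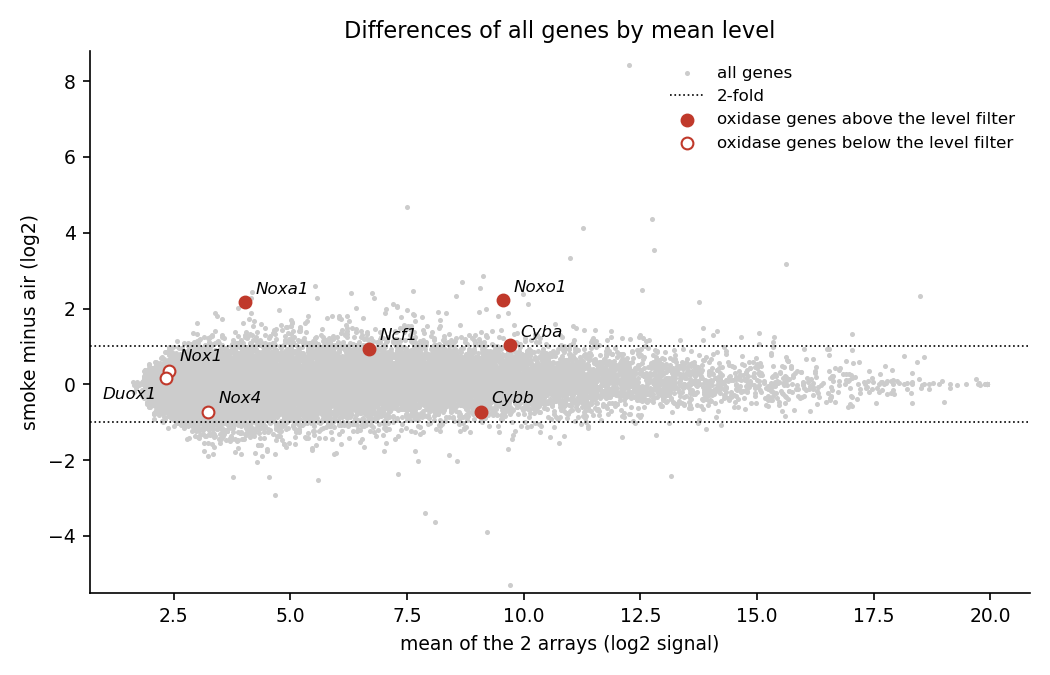
Log2 difference, smoke minus air (vertical axis), against the mean of both arrays (horizontal axis, log2 signal) for all genes (grey) and the 8 oxidase genes (red; open symbols are below the level filter), with dotted lines at 2-fold. Noxo1 at 2.22 and Noxa1 at 2.16 stand above the sets of genes nearest to each in mean level. Saa4, outside that set for Noxa1 but close to it in the plane of both arrays, lies higher at 2.27. Cyba lies at the dotted line and Cybb lies at -0.72.

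The genes closest to each member in the plane of both arrays were found by Euclidean distance over the 2 log2 signals, which with 2 samples says little beyond a like level and a like difference. Nearest to Noxo1 were Tnfaip3 (an NF-kB feedback inhibitor) at a distance of 0.29, Sh3pxd2a at 0.33 and Lgi2 at 0.52. Those nearest to Noxa1 were Saa4 (a serum amyloid A protein) at 0.21, Ciart (a circadian repressor) at 0.22 and Rasd2 at 0.28. Tmem234, Cebpd (a transcription factor of acute inflammation) and Cd14 (the lipopolysaccharide co-receptor) were nearest to Cyba, at 0.01, 0.03 and 0.04.

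Among the other assembly and maturation genes, 11 of 13 were measured and 7 passed the filter, of which 2 were higher, 0 lower and 5 within 2-fold. Of all genes counted, 3.94% were higher and 2.48% lower. The list was chosen with earlier results of these data known, so nothing is read from this count. Sh3pxd2a encodes TKS5, a p47phox-related scaffold that can serve NOX1 and NOX4 as an organizer, and it was at 8.56 in air and 10.35 in smoke, which differ by 1.79. Its paralog Sh3pxd2b (TKS4) was below the filter at 3.82 in air and 3.59 in smoke. Of this pair of scaffolds, Sh3pxd2a was past 2-fold, and Sh3pxd2b was not counted.

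The RAC GTPases switch the oxidases on in their GTP-bound form. Rac3 had signals of 8.14 (air) and 9.34 (smoke), a difference of 1.20 that placed it past 2-fold. Rac2, the form of blood cells, was at 5.35 in air and 6.05 in smoke, which differ by 0.70. Rac1, the widely expressed form, was at 15.85 in air and 15.65 in smoke. Poldip2, which binds p22phox and raises NOX4 activity, had signals of 9.75 (air) and 10.04 (smoke), a slight gap toward smoke. Cybc1, the chaperone of the NOX2 heterodimer, was at 6.52 in air and 6.08 in smoke, on the same side as Cybb. Ncf4 (p40phox) was at 5.02 in air and 5.25 in smoke. Hvcn1, the proton channel that balances the charge of phagocyte oxidase, and Nox3, the oxidase of the inner ear, were below the filter with differences of 0.01 and -0.09.

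Of 10 counted genes that act on the oxidases, such as kinases and RAC exchange factors, 0 were higher, 1 was lower and 9 were within 2-fold, beside 3.94% higher and 2.48% lower of all genes counted. Their median difference was -0.37 with 8 of 10 below 0, beside a median of 0.06 and 44.7% below 0 over all genes counted. Prkca, a protein kinase C that phosphorylates p47phox, was at 6.96 in air and 5.89 in smoke, which differ by -1.07, or by -0.90 with the offset. Vav1, a RAC exchange factor of blood cells, and Pla2g4a, a cytosolic phospholipase A2 whose product arachidonate activates the phagocyte oxidase, had differences of -0.79 and -0.61.

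**Figure D3:**
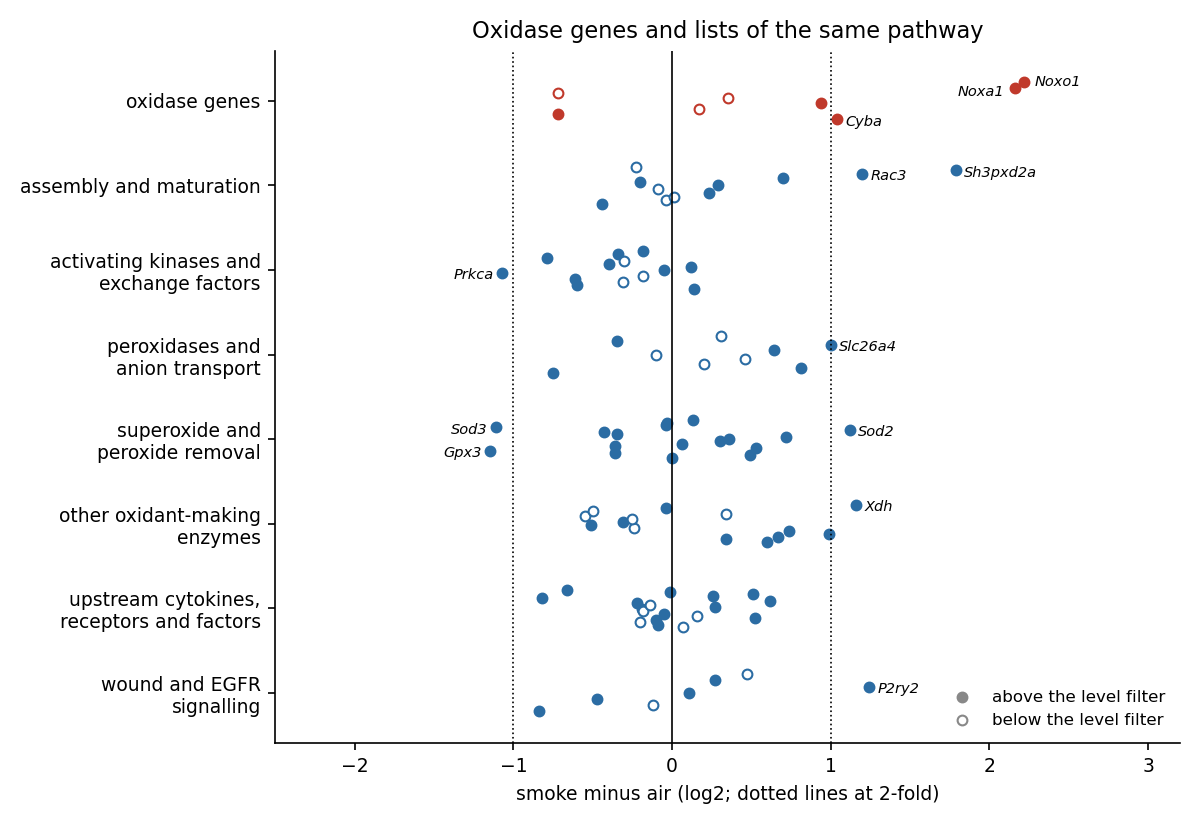
Log2 difference, smoke minus air (horizontal axis), for each measured gene of the oxidase family (red) and of 7 lists of the same pathway (blue), with open symbols below the level filter and names beside genes past 2-fold. Across the 7 lists 6 genes were higher and 3 lower by 2-fold, and none lay as far out as Noxo1 and Noxa1.

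Over all 7 pathway lists 66 genes were counted, of which 6 (9.09%) were higher and 3 (4.55%) lower by 2-fold, beside 3.94% and 2.48% of all genes. In the peroxidase and anion transport list, 1 of 5 counted genes was higher. This was Slc26a4, pendrin, an anion exchanger that carries thiocyanate and iodide, at 10.37 in air and 11.37 in smoke, exactly on the threshold and within 2-fold under quantile normalization (0.92). Cftr, the chloride and thiocyanate channel, had a difference of 0.81, and the chloride channel Ano1 one of -0.75. Lpo, lactoperoxidase, named after its value was seen, was below the filter at 3.01 in air and 3.47 in smoke.

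Of 17 counted genes for the removal of superoxide and peroxide, 1 was higher and 2 lower, beside 3.94% and 2.48% of all genes counted. Their median was 0.00, with 8 differences above 0 and 8 below. Sod2, the mitochondrial superoxide dismutase, had a difference of 1.12, while the secreted enzymes Sod3 (extracellular superoxide dismutase) and Gpx3 (a plasma glutathione peroxidase) had differences of -1.11 and -1.15, and Sod3 was within 2-fold with the offset (-0.95). Among other enzymes that make oxidants, 1 of 9 counted genes was higher and 0 were lower, beside the same shares of all genes. This was Xdh (xanthine dehydrogenase, which can act as an oxidase), with signals of 11.20 (air) and 12.36 (smoke). The endoplasmic reticulum oxidases Ero1a and Ero1b had differences of 0.99 and 0.74.

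Upstream cytokines, receptors and transcription factors had 0 of 13 counted genes past 2-fold, where 3.94% of all genes counted were higher and 2.48% lower. Nothing is read from a count this small. Their median was -0.05, beside 0.06 over all genes counted. Spi1 (PU.1), a myeloid factor that drives Cybb and Ncf1, was at 12.85 in air and 12.03 in smoke, which differ by -0.82. Tnfrsf1a, a TNF receptor, had a difference of -0.66, and Smad3, which carries TGF-beta signals to Nox4, one of 0.62. In the list of DUOX1 wound signalling, 1 of 5 counted genes was higher and 0 were lower, beside the same shares of all genes. This was the ATP receptor gene P2ry2, with signals of 8.85 (air) and 10.09 (smoke). The sheddase Adam17 had a difference of -0.84 and the EGFR ligand Hbegf one of -0.47.

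Markers of the sorted type and of other cells were read on the same arrays, because Cybb, Ncf1 and Cyba are also phagocyte genes. The type 2 markers Sftpc, Sftpb and Sftpa1 were at 19.93, the highest deposited value, on both arrays. The 4 type 2 markers of the list not at this limit (Sftpd, Abca3, Napsa and Etv5) had a median difference of 0.04. Of these, Napsa (19.61 in air, 19.76 in smoke) and Etv5 (19.91 in each) lay close under the limit, with little room for a higher value. Sftpd and Abca3 lay further below it, with differences of 0.05 and 0.04. The median is therefore not read as an unchanged type 2 signal. Macrophage and monocyte markers had mean log2 signals of 5.27 (air) and 5.25 (smoke) over 9 measured genes, of which 3 were above the filter. Adgre1 (F4/80) did not reach the filter, with 4.43 in air and 4.27 in smoke, Mrc1 was at 8.82 in air and 8.59 in smoke, Csf1r had a difference of -0.15, and Cd14 was past 2-fold at 1.06, though within it under quantile normalization (0.95) and centring by level (0.88). Neutrophil markers had a mean of 4.80 in air and 5.15 in smoke over 9 genes. Of the 5 above the filter 0 were past 2-fold, beside 3.94% higher and 2.48% lower of all genes counted. Their differences were 0.98 for Cxcr2, 0.90 for Retnlg, 0.60 for Csf3r, 0.28 for S100a8 and -0.19 for S100a9. Retnlg passed through its smoke signal alone (4.25 in air, 5.15 in smoke). With the offset Cxcr2 and Retnlg had differences of 0.74 and 0.56. Over all 9, 6 differences were above 0 and 3 below. The part of these cells in the differences of Cybb, Ncf1 and Cyba was not tested.

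Of the pan-leukocyte genes, Ptprc (CD45) was at 7.64 in air and 7.59 in smoke, Laptm5 had a difference of 0.18, Lcp1 one of 0.89, and Coro1a was below the filter. B cell genes, which can also carry the phagocyte oxidase, had Cd79b at a difference of 0.32 and Cd79a at -0.16, with Ms4a1 below the filter. Endothelial markers, whose cells express Nox4 and Cybb, had a mean of 11.07 in air and 10.24 in smoke. Of 6 counted genes 2 were lower by 2-fold, Cldn5 at -1.17 and Eng at -1.03, beside 2.48% of all genes counted. The other 4 were within 2-fold, with differences of -0.92 for Kdr, -0.73 for Pecam1, -0.68 for Tie1 and -0.48 for Cdh5, and Kdr was past 2-fold under quantile normalization (-1.03). Their part in the Cybb and Nox4 differences was not tested. Fibroblast and smooth muscle genes, also known for Nox4, had a mean of 5.28 in air and 4.82 in smoke, with Col1a1 at -1.18, Col1a2 at -0.05, Acta2 at 0.22 and Pdgfrb at 6.09 in air and 5.09 in smoke; with the offset Col1a1 and Pdgfrb were within 2-fold (-0.89 and -0.75).

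Airway cells are the usual site of dual oxidase, and Noxo1 and Noxa1 are known from mucosal epithelium. The club cell gene Scgb1a1 was at the highest deposited value on both arrays, while Scgb3a1, Muc5b and Scgb3a2 had differences of -1.83, -0.64 and 0.60. Among the ciliated markers Tppp3 had a difference of -1.44 and Dynlrb2 one of 0.35, and Ccdc39 was below the filter. All 3 basal genes (Krt5, Trp63 and Krt14) and all 3 tuft genes (Dclk1, Trpm5 and Pou2f3) were below the filter on both arrays. Alveolar type 1 genes had a median of -0.22 over 6 genes, with Clic5 at -0.68, Hopx at -0.28, Aqp5 at -0.23 and Ager at 0.13. The part of these cells in the oxidase differences was not tested.

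**Figure D4:**
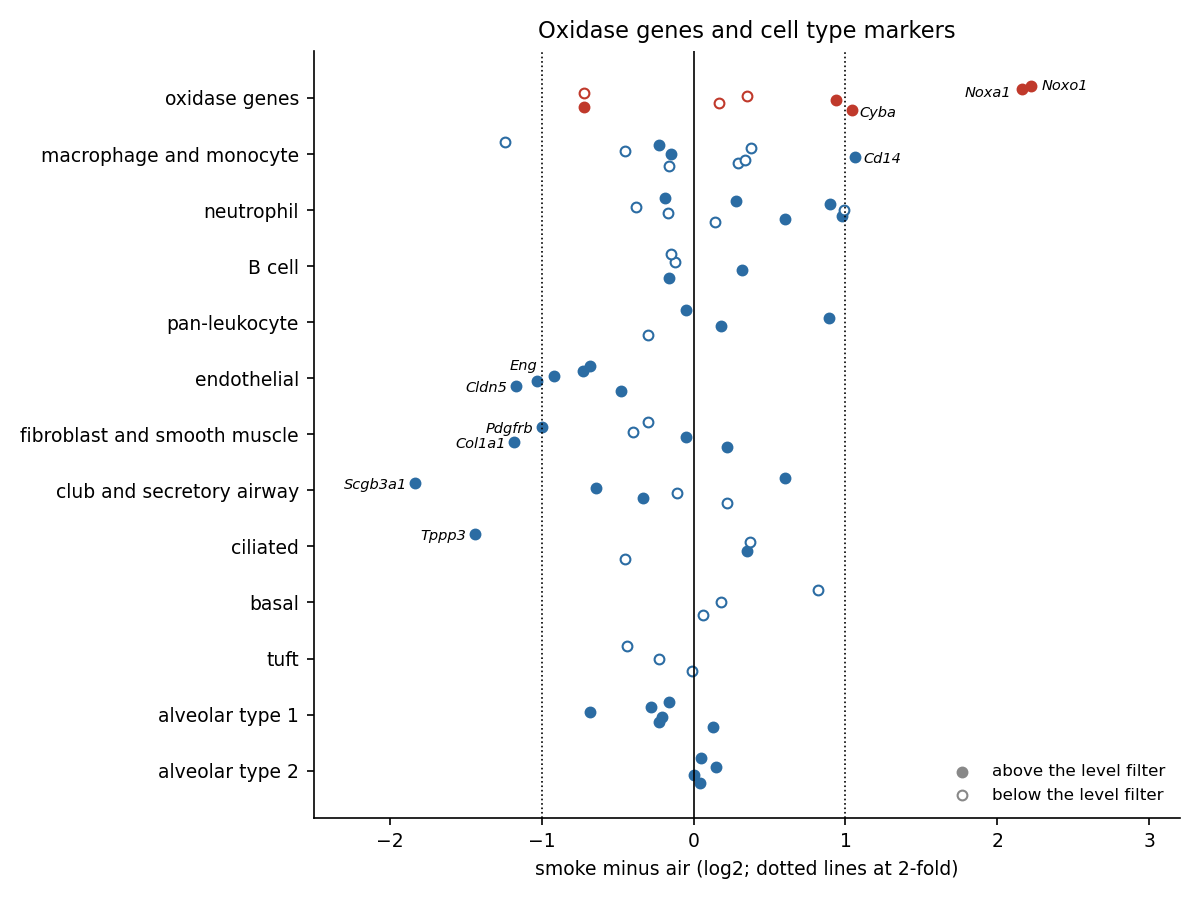
Log2 difference, smoke minus air (horizontal axis), for the oxidase genes (red) and markers of 12 cell types (blue), with open symbols below the level filter; genes at the highest deposited value on both arrays are not drawn. The 6 endothelial markers lie left of 0, and Cd14 at 1.06 is the only counted marker past 2-fold on the higher side, a call it lost under quantile normalization (0.95).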

How the data were processed

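Signals were measured on 2 Affymetrix Clariom S Mouse arrays, 1 per group. The authors deposited 1 value per probe, taken here as log2 signal from its range (1.55 to 19.93); scale, centring and normalization are not stated. Per the submitters' processing notes, Transcriptome Analysis Console was used (no version given). Column medians were 4.61 (air) and 4.53 (smoke), quartiles 3.20 and 7.55 (air) and 3.09 and 7.65 (smoke). Direction, smoke minus air, follows the labels. The number of arrays limits the precision.

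Of 22206 probes, 19572 had 1 gene symbol and 2634 had no single symbol and are unnamed here. RefSeq matched 19572 Entrez numbers. Probes of a gene were averaged, and 16 genes at 19.93 on both arrays were left out of counts. Each difference was set beside the median and robust SD (scaled median absolute deviation) of the 200 genes nearest in mean level. The procedure was tested on simulated data with noise set from the spread between these 2 arrays. This cannot show how replicate arrays would vary. Named were all members, all assembly and maturation genes, the up to 3 genes of each other list with the largest difference above the filter, in addition the first 3 of each marker list that were measured, and 3 nearest genes per member past 2-fold; Lpo, Tie1 and Etv5 were named after their values were seen. Some listed genes were not analysed here. The members and lists were chosen with earlier results of these data known. Python 3.11.15, pandas 2.3.3 and numpy 2.4.6 were used.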

Additional observations from a re-analysis of the deposited data

How the results depend on the processing

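Across 9 alternatives, between 2 and 5 members were past the threshold. Noxo1 was past it under all 9. Noxa1 was left out by a level filter on the array mean and by one at the 75th percentile, and Cyba lay within the threshold under quantile normalization, centring by level and a 3-fold threshold. At 1.5-fold Ncf1 joined on the higher side (4 members, where 14.5% of all genes were higher) and Cybb on the lower (1 member, 9.19%). The median difference of the members ranged from 0.45 with the offset to 0.645. The log2 difference of Noxa1 was 1.09 with the offset.

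Counts over all genes moved more. Higher genes numbered 212 with the 75th percentile filter, 1514 at 1.5-fold, 66 at 3-fold and 243 with the offset, and lower genes 407 without a filter, 74, 958, 35 and 102. Pathway list genes were 15 higher and 10 lower at 1.5-fold, beside 14.5% and 9.19% of all genes. At 3-fold they were 1 and 0, beside 0.633% and 0.336%. With the 75th percentile filter 1 was lower (1.41% of all genes), and with the offset 1 was lower (0.981%). No paired analysis was possible because each group has 1 array and leaving one out leaves no comparison. Dim signals limit Nox1, Nox4 and Duox1, which lay below the filter on both arrays, and no detection calls were used.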
